A study of Rattus norvegicus with 18 samples.

Results

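Germ cells sorted from male and female rat fetuses of dams on the control diet were compared at gestational day (GD) 16. The authors' table for this comparison lists 48127 differentially methylated regions, out of 61661 regions in the 4 comparison tables of the series, and all 48127 are described here. The comparison rests on 7 of the series' 18 libraries, namely 4 control males and 3 control females. Both groups were transgenic Sprague-Dawley rats of genotype GFP-GCS, in which a green fluorescent protein marks germ cells, and the cells were isolated by fluorescence-activated sorting. The dams received a diet with 18% of its energy from fat from GD0, the day of the sperm-positive smear, with 5 dams in each diet group. The other groups used for comparison were 4 male and 3 female libraries at GD16 from dams on a high-fat diet (HFD, 45% of energy from fat) and 4 control male libraries at GD18, all of the same strain and transgene. The labels call the cells gonocytes and name no organ. No transcript was measured, so the identity of the sorted cells could not be checked against marker levels. The labels do not say whether libraries of one group came from separate litters, and 4 samples of the series were re-analysed from another project without a statement of the group they form, so a difference in project of origin and the difference in sex cannot be told apart if they are the 4 control males.

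Fetal germ cells of mammals erase most of the cytosine methylation that they inherit from the early embryo. In mice, male germ cells regain methylation before birth, in arrested gonocytes, through the methyltransferase Dnmt3a, its cofactor Dnmt3l and the piRNA pathway, whereas oocytes regain it only during their growth after birth. Methylation at a CpG is read after bisulfite treatment, which converts unmethylated cytosines, and the level of a region is the share of methylated calls at its CpGs. Every level below is the authors' mean over the libraries of a group, in percent. No value per library, read count or coverage was available, so the depth behind a level and its spread between libraries are unknown, and no test across libraries was made. A region is called higher in one sex where the authors listed it so.

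Promoter or 5′ UTR regions of genes with a known part in germ cells or imprinting were among those listed, and the RefSeq promoters of 5 such genes are printed to show how widely their CpG content ranges. Each sequence is of assembly GRCr8 and runs from 250 bases before to 50 bases after the gene start, read 5′ to 3′ on the gene's strand, with every CpG, the only motif searched, in capitals. A CpG reads the same on both strands. Of the 24206 rat promoters with one entry in the table, 94.8% hold a CpG and the median is 8. No label or header used here names the build of the authors' coordinates, so the listed regions could not be placed on these sequences.
Dnmt3l (chr20:10628940-10629239, minus strand): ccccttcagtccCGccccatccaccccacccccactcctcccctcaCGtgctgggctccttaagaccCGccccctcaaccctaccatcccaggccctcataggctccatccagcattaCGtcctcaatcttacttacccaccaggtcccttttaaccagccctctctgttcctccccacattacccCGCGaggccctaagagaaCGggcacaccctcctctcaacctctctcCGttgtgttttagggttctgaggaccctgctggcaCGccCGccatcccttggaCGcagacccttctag
Piwil4 (chr8:19861171-19861470, minus strand): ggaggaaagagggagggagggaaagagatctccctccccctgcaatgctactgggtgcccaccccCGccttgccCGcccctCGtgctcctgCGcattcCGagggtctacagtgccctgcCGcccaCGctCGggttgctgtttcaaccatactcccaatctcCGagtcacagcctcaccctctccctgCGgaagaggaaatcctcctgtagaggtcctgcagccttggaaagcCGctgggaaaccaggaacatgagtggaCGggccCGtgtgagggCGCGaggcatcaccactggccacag
Gtsf1 (chr7:136435835-136436134, minus strand): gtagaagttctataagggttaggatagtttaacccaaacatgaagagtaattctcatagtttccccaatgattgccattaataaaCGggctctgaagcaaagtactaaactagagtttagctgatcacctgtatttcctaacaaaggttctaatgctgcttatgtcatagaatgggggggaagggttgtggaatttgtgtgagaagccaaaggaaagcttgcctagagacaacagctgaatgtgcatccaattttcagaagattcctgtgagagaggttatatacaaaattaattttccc
Tcl1a (chr6:129895707-129896006, minus strand): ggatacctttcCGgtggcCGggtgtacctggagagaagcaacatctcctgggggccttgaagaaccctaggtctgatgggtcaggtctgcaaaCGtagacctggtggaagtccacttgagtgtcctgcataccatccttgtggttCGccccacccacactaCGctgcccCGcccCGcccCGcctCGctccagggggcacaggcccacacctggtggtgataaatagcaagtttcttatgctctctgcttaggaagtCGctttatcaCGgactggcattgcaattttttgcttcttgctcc
Plagl1 (chr1:9297214-9297513, plus strand): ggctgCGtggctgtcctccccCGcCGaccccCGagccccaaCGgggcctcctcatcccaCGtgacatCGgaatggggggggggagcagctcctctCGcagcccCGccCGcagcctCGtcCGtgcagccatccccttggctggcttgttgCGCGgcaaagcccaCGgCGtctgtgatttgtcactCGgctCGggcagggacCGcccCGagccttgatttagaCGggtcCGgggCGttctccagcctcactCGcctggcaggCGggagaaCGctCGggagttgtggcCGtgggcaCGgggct
The Gtsf1 window holds 1 CpG, the Dnmt3l and Tcl1a windows hold 11 each, the Piwil4 window holds 15 and the Plagl1 window holds 29. As many CpGs or more are held by 94.8%, 43.3%, 36.2% and 12.8% of all promoters, in the order of 1, 11, 15 and 29.

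Methylation was higher in male germ cells at 47962 regions and higher in female germ cells at 165, so 99.7% of the listed regions were male-higher and 0.343% female-higher. The false discovery rate (FDR) had been adjusted over 48493 regions, of which 99.2% were listed, and the share listed therefore says little about how many regions of the captured panel differed. The listed regions hold 495155 CpGs over 23020244 bp, with a median gap of 12682 bp to the next region on the chromosome. Neither group was highly methylated at most of them. At the male-higher regions the middle 90% of the male means ran from 14.2 to 30.4% and that of the female means from 1.3 to 9.3%. The male mean was a median 4.12 times the female mean (quartiles 3.17 and 5.87) at the regions where the female mean was above 0, and 649 regions had a female mean listed at 0.

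Few male-higher regions were strongly methylated in males and almost none in females. The male mean lay under 15% at 4081 male-higher regions, from 15 to under 20% at 21417, from 20 to under 30% at 19822, from 30 to under 50% at 2561, and at 50% or above at 81. The 81 were small, with a median of 6 CpGs and 113 bp, and 5 of them had 10 or more CpGs. Among the same male-higher regions the female mean was below 5% at 25584 besides those listed at 0, from 5 to under 10% at 20088, from 10 to under 20% at 1623, and at 20% or above at 18. All listed regions differ by at least 10 points, and 5452 male-higher regions (11.4%) stood just inside that limit with a difference under 11 points. Regions with a smaller difference were not analysed here.

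**Figure D1:**
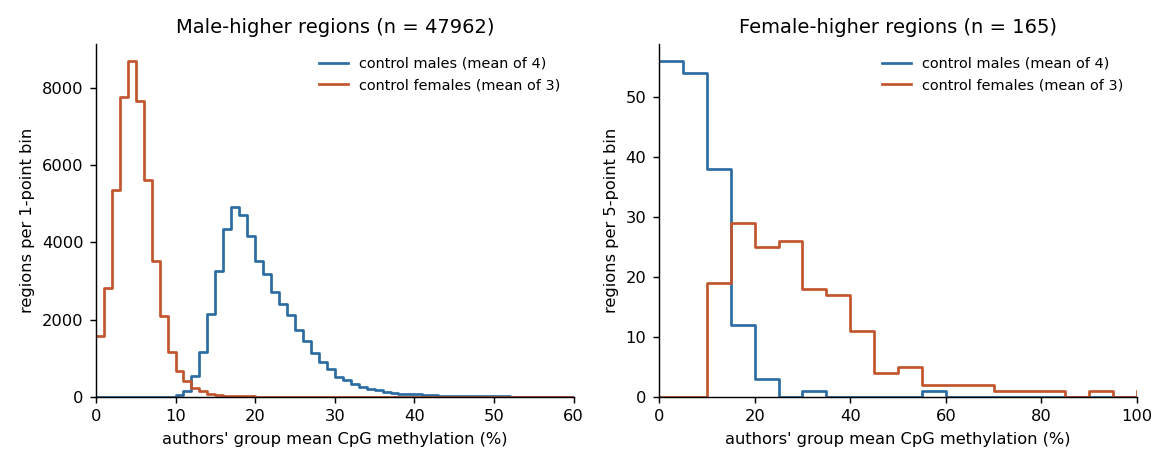
Number of regions by the authors' group mean methylation (x axis, percent) for control males (blue, mean of 4 libraries) and control females (orange, mean of 3 libraries), in bins of 1 point for the 47962 male-higher regions and of 5 points for the 165 female-higher ones. Male-higher regions form a single peak near 5% in females and a single peak near 18% in males, while the female-higher regions spread widely in females.

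The male level fell and the female level rose as regions held more CpGs. The 7136 male-higher regions with 5 CpGs had a median of 20.8% in males (middle 90%, 13.8 to 34.8%) and 4.2% in females (0.3 to 9.9%). The 98 regions with 50 or more CpGs had 17.6% in males (15.54 to 23.32%) and 5.2% in females (3.4 to 7.23%). The range of both means thus narrowed with CpG number. In the authors' deposited table the median p-value was 1.6e-04 at 5 CpGs and 3.02e-33 at 50 or more, so the deposited p-values also moved with the number of CpGs. The authors call the test a two-sample t-test, and its unit is not known here. With 4 and 3 libraries in the groups, neither these p-values nor the FDR is read here as a measure of spread between libraries.

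**Figure D2:**
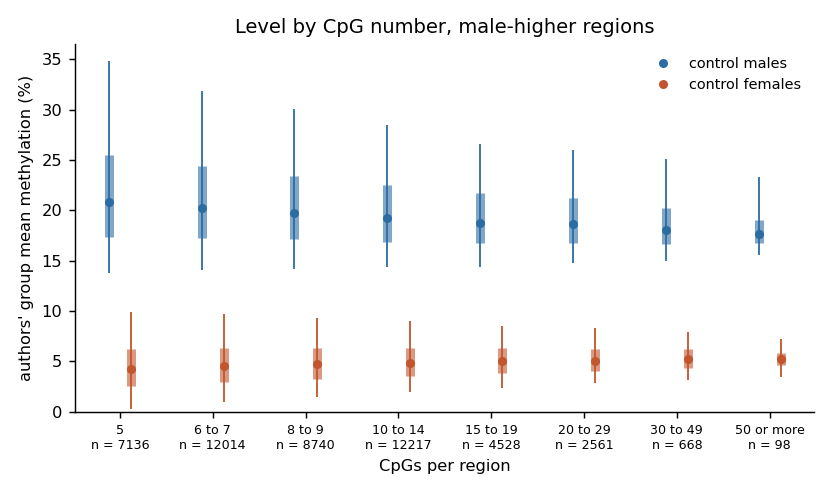
Authors' group mean methylation (y axis, percent) of male-higher regions by the number of CpGs in the region (x axis). Dots are medians over regions, thick bars quartiles and thin bars the middle 90%. Male medians fall from 20.8 to 17.6% and female medians rise from 4.2 to 5.2%, and both spreads narrow.

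The regions with the most CpGs are shown first because both ranges were narrowest there. A 3′ UTR region of Prpf18, which encodes a pre-mRNA splicing factor, covered 127 CpGs (chromosome 17, 77629204 to 77630947) at 22.6% in males and 5.4% in females. An intron of Ifngr1, the interferon gamma receptor gene, had 17.7% and 6.6% over 64 CpGs. An intron of the ubiquitin ligase gene Hecw1 had 16.2% and 4.3% over 60 CpGs. The male mean was the higher at each of them, and none was near full methylation. Ceacam1, a cell adhesion gene, and Scn3a, a sodium channel gene, had 59 CpGs each, at 17.9% against 5.8% and 15.8% against 4.6%.

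Among male-higher regions with at least 20 CpGs and a gene name, the widest gap lay in an exon of Gli2, a transcription factor of hedgehog signalling, with 33.1% in males and 0.4% in females over 23 CpGs (chromosome 13, 34832514 to 34832775). An intron of Got2, the mitochondrial aspartate aminotransferase gene, followed with 35.5% and 4.0% over 21 CpGs. The 3′ UTR of Pex14, needed for peroxisome import, had 36.4% and 5.8% over 20 CpGs. The female level was low at each of them, and the male level lay between 33 and 37%. The RNA helicase genes Ddx54 (intron, 31.9% against 3.8%) and Ddx23 (exon, 30.4% against 2.4%), the F-box gene Fbxl17 (intron, 32.7% against 5.3%), the receptor gene Ephb1 (3′ UTR, 32.8% against 5.9%) and the zinc finger gene Tshz3 (exon, 31.7% against 5.1% over 26 CpGs) completed the 8.

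Median levels at male-higher regions differed little between the classes of sequence with at least 50 regions. They were 19.5% in males and 4.6% in females over 23550 intergenic regions, 19.6% and 4.8% over 17768 intronic regions, and 19.9% and 4.9% over 3491 exonic regions. The 1094 promoter regions (promoter-TSS in the authors' annotation) had 19.2% and 4.5%, and the 62 regions of 5′ UTRs had 18.95% and 4.95%. Transcript ends and 3′ UTRs lay between these values. CpG islands held 133 male-higher regions at 19.1% and 4.3%, with a median of 18 CpGs and 7.28 CpGs per 100 bp, against 1.85 per 100 bp in the promoter regions. The male medians of these classes differed by less than 1 point, whereas the quartiles of the male level over all male-higher regions lay at 17.0 and 23.4%.

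Medians at transposon copies were close to those of the other classes. Long terminal repeat (LTR) elements and LINEs are main targets of piRNA-guided methylation in fetal male germ cells of mice, and SINEs are short elements that LINE proteins copy. The 183 LTR regions had medians of 19.3% in males and 4.4% in females, the 184 LINE regions 19.9% and 4.85%, and the 1122 SINE regions 20% and 4.55%. Among families, 78 regions of L1, the active LINE family of rodents, had 20% and 4.7%. The 23 regions of ERVK, the LTR family that holds the intracisternal A particles, had 21.8% and 4.5%, and 8 of them, copies of RLTR32_Rn, had a male median of 27.75% (quartiles 23.28 and 30.78%). The 330 Alu (B1) regions had 20.05% and 4.40%, and the 265 B2 regions 20.5% and 4.8%. The median of each of these families, though not that of RLTR32_Rn in males, lay within the quartiles of all male-higher regions in both sexes.

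**Figure D3:**
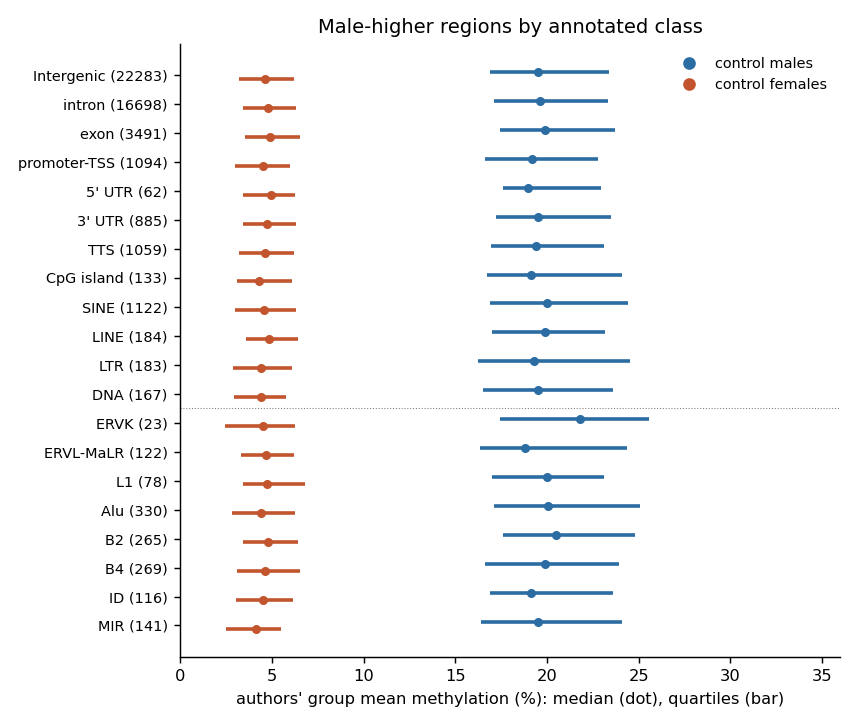
Authors' group mean methylation (x axis, percent) of male-higher regions by annotated class (above the dotted line) and repeat family (below it), with the number of regions in brackets and with islands and repeats counted apart from introns and intergenic sequence. Dots are medians and bars quartiles over regions, for control males in blue and control females in orange. All male medians lie between 18.8 and 21.8% and all female medians between 4.1 and 4.95%.

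Chromosomes differed little. Over the 20 autosomes the male medians ran from 19.2 to 19.8% and the female medians from 4.5 to 4.8%. The X chromosome, of which males carry a single copy, held 523 male-higher regions and 3 female-higher ones. Its male median was 21.0% (quartiles 17.5 and 25.9%) and its female median 4.8%, the female value being within the autosomal range. The male excess over autosomes was present at both sizes of region: 22.0% on the X against 20.2% on autosomes at 5 to 9 CpGs, and 20.2% against 18.9% at 10 or more. A further 38 male-higher or female-higher regions lay on 23 unplaced scaffolds. One of these scaffolds, KL568273.1, was highly methylated in both sexes, with 85.7% in males and 69.3% in females over 22 CpGs, and beside it a female-higher region with 57.0% and 72.4% over 28 CpGs.

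Listed regions with a consistent gene assignment fell at 7800 genes. Of these, 7734 had male-higher regions only, 55 had both kinds and 11 had female-higher regions only. Among the RefSeq protein-coding genes, 41.6% (7707 of 18539) had a region. Genes were matched by accession, and among the 16012 with an accession no newer than the newest in the tables the share was 48.1%; a gene with newer accessions only could not be matched, so genes named below as having no region are among the 16012 unless noncoding. Genes with many regions had levels near the medians of all listed regions. In the 89 genes with 20 or more, the gene medians ran from 17.75 to 24.1% in males and from 3.5 to 6.4% in females. Camta1, a calmodulin-binding transcription factor gene with 89 regions, had a median of 18.6% in males (range 11.9 to 39.0%) and 4.5% in females. The cell adhesion gene Cdh13 had 46 regions at 19.1% and 4.55%, and Reln, the gene of the neuronal guidance protein reelin, 45 at 18.4% and 4.7%.

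Genes of the machinery that sets, keeps and reads methylation were among those with listed regions. Male-higher shares of the gene lists are to be read against 99.7% of all listed regions. Shares of coding members with a region are to be read against 41.6% of all coding genes, with unmatched members counted as lacking one. Among matched members alone, the share was 45.5% for active demethylation and repair, 58.8% for the piRNA pathway and 47.4% for silenced germline genes. It was 52.2% for meiosis, 62.5% for pluripotency, 75% (3 of 4) for paternal and 60% for maternal imprint loci. Retinoic acid and WNT signalling had 61.1% and 52.1%. The Sertoli, granulosa, Leydig and blood lists had 45%, 58.3%, 46.2% and 57.1%. In the machinery list 13 of 24 protein-coding members had a region (54.2%). This was 72.2% of the 18 that could be matched, against 48.1% of all such genes. All 33 regions were male-higher, with medians of 18.7% in males and 5.0% in females. Dnmt3l, the cofactor of de novo methylation, had 20.1% in males and 7.4% in females over 13 CpGs of its promoter (chromosome 20, 11359506 to 11359828), and 24.2% and 6.8% in an intron. Dnmt1, the maintenance methyltransferase, had 5 regions, the largest an exonic one of 41 CpGs at 17.3% and 5.5%, and another exonic one of 21 CpGs at 23.1% and 3.0%. The Dnmt1 medians were 17.2% in males and 5.5% in females, against 19.6% and 4.7% over all male-higher regions. Ehmt2, a histone H3 lysine 9 methyltransferase, held the highest male level of the list, 35.6% against 5.7% in an exon. The imprint-protecting zinc finger genes Zfp57 (promoter, 18.7% against 5.3%) and Zfp445 (intron, 13.5% against 1.5%) were male-higher as well. No region was assigned to Trim28, a corepressor that Zfp57 recruits. Of the active demethylation and repair genes, 5 of 12 coding members had a region (41.7%), all in introns, and Tdg, a DNA glycosylase gene, and the repair genes Parp1 and Xrcc1 were among them.

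Genes of the piRNA pathway, which guides methylation to transposons in fetal male germ cells of mice, had a region at 10 of 20 coding members (50.0%), and all 29 regions were male-higher. Promoter regions were listed at 5 of these 10 genes. Over all 7800 genes with a region, 1061 had one in a promoter or 5′ UTR. Piwil4, whose protein carries piRNAs into the nucleus in mice, had 20% in males and 7.4% in females over 8 CpGs (chromosome 8, 13252227 to 13252799). Gtsf1, which encodes a partner of Piwi proteins, had 23.3% and 7.0% over 6 CpGs (chromosome 7, 145048652 to 145049130). Asz1, a mitochondria-associated component, had 23.8% and 5.2% over 5 CpGs. These 3 promoters lay above the male median of 19.2% for promoter regions. Piwil2 (19.1% against 3.8% over 12 CpGs) and Tdrd6, a tudor protein gene (14.4% against 2.4% over 7 CpGs), lay below it. Within the genes the largest region was an intron of Piwil2 with 39 CpGs, at 16.7% in males and 4.2% in females.

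Germline genes that somatic tissues silence by promoter methylation are a class that fetal germ cells of mice demethylate late. They had a region at 9 of 22 coding members (40.9%), and 16 of 16 regions were male-higher with medians of 18.65% and 4.1%. Of the 9, 2 had a promoter region, to be read against 1061 of all 7800 genes with a region, 5′ UTRs included. They were Brdt, a bromodomain gene of spermatogenesis, with 18.1% in males and 4.7% in females over 15 CpGs, and the testis tubulin gene Tuba3a with 24.1% and 5.3%. No region was assigned to Dazl, Ddx4, Sycp1, Sycp2 or Sycp3. Meiosis genes had 12 of 26 coding members with a region (46.2%) and 21 male-higher regions of 21. Their promoter or 5′ UTR regions were those of Rec114, a factor of meiotic break formation (18.1% against 5.7% over 11 CpGs), and of the meiotic cohesin gene Rec8 (19.4% against 6.9%). No region was assigned to the recombinase gene Dmc1.

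Pluripotency and primordial germ cell genes had a region at 10 of 21 coding members (47.6%), with 27 male-higher regions and 1 female-higher region. The promoter of Tcl1a, a cofactor of the kinase Akt, had 28.9% in males and 7.8% in females over 11 CpGs (chromosome 6, 128894917 to 128895617). Kit, the receptor on which germ cell survival and migration depend, had 9 regions, from 16.1 to 27.4% in males and from 0.8 to 12.0% in females. Dppa3, whose protein protects methylation in mouse zygotes, had 16% and 4% in an intron. Prdm1, a repressor needed for germ cell specification in mice, had regions in both directions: 3 were male-higher (17.0 to 22.1% against 3.1 to 7.2%), and an intronic region of 13 CpGs had 5.9% in males and 18.8% in females (chromosome 20, 49481261 to 49481709). No region was assigned to Pou5f1, Nanog or Sox2.

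Imprinted loci lose parental methylation in fetal germ cells and regain it according to the sex of the carrier. In the gene list for loci methylated on the paternal copy, 3 of 5 coding members had a region. The 11 regions at Dlk1, Igf2, Meg3 and Rasgrf1 were male-higher with medians of 18.6% and 5.5%. Meg3, a noncoding RNA gene, had 16.7% in males and 4.9% in females over 24 CpGs of an intron. Rasgrf1 had 7 regions, the most divergent at 29% and 1.8%. No region was assigned to H19. In the gene list for loci methylated on the maternal copy, 21 of 41 coding members had a region (51.2%). There 106 of 107 regions were male-higher with medians of 19% and 4.4%. The medians of both gene lists differed by less than 1.5 points in each sex. Regions were assigned by gene, and none was placed on the sequence that carries an imprint, so the imprint marks themselves were not compared. The 5′ UTR of Plagl1, a growth-suppressing zinc finger gene, had 18.0% in males and 3.7% in females over 28 CpGs (chromosome 1, 7219597 to 7219842). An intron of the neuronal gene Nnat had the lowest male level of a male-higher region in the list, 12.2% against 1.9%, over 41 CpGs. Peg3 had 2 exonic regions of 12 CpGs at 13.8% against 1.9% and 14.1% against 3.1%. Asb4 had 3 male-higher regions and an exonic female-higher one of 6 CpGs with 3.5% in males and 15.2% in females. Snrpn, Mest and Gnas had no assigned region.

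**Figure D4:**
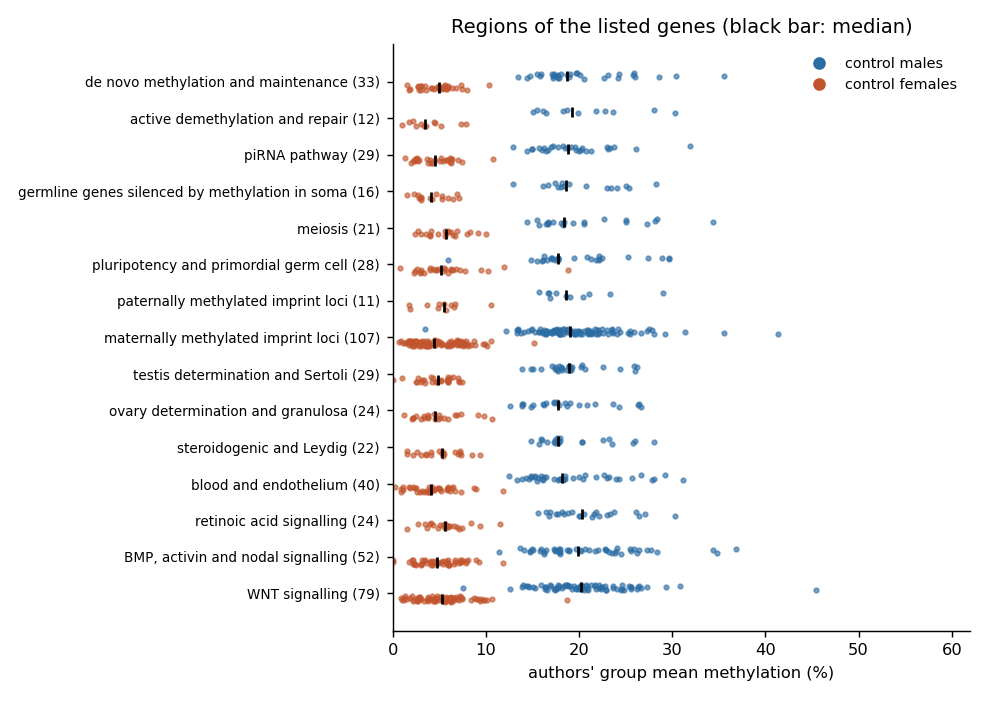
Authors' group mean methylation (x axis, percent) of each listed region of the genes in 15 lists with at least 10 regions, with the number of regions in brackets. Blue points are control males, orange points control females and black bars the list medians. Male medians run from 17.75 to 20.3% and female medians from 3.5 to 5.7%, and the 2 sexes are swapped at the 3 female-higher regions.

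Regions of signalling genes were male-higher as well, with list medians from 19.9 to 20.3% in males and from 4.8 to 5.6% in females. Bone morphogenetic protein (BMP), activin and nodal signalling had a region at 17 of 26 coding members (65.4%), with 52 of 52 male-higher. All 26 could be matched, and the share was 41.6% over all coding genes and 48.1% over those that could be matched. Among ligands, Lefty2, a nodal inhibitor, had 28.4% in males and 4.4% in females over 13 CpGs of its promoter, and Bmp7 reached 36.9% and 7.4% in an intron. Among receptors, Acvr1 had 7 intronic regions and Bmpr1b a promoter region at 25.9% and 9.3%. Smad1, which carries the BMP signal to the nucleus, had 9 regions, among them a 5′ UTR region at 26.4% and 2.2%. Retinoic acid signalling, which has been linked to meiotic entry in the fetal ovary of mice, had a region at 11 of 18 coding members (61.1%), with 24 of 24 male-higher. These included Aldh1a2, which makes retinoic acid (26.4% against 8.4%), the receptor gene Rara (30.3% against 11.5%) and Cyp26b1, which degrades retinoic acid (16.5% against 4.0% over 16 CpGs). WNT signalling had 25 of 52 coding members with a region (48.1%) and 78 of 79 regions male-higher. Lef1, a WNT-responsive transcription factor gene, held both the highest male level of the list, 45.4% against 6.2% over 8 CpGs of an intron, and the one female-higher region, 7.6% against 18.7% over 11 CpGs of an intron (chromosome 2, 236326227 to 236326753).

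Genes that mark other cells of the fetal gonad had list medians from 17.75 to 18.9% in males. The testis determination and Sertoli list had 9 of 20 coding members with a region (45.0%) and 29 of 29 male-higher, with medians of 18.9% and 4.9%, 12 of the regions at Map3k4. The ovary determination and granulosa list had 7 of 14 (50.0%) and 24 of 24, at 17.75% and 4.5%, including Ctnnb1, Lgr5 and Wnt4. Steroidogenic and Leydig genes had 6 of 13 (46.2%) and 22 of 22 at 17.75% and 5.3%. Blood and endothelial genes had 8 of 14 (57.1%) and 40 of 40 at 18.15% and 4.1%, 21 of the regions at Flt1. Methylation gives no expression level for these markers, and the part of other cells in the sorted samples was not tested. Sox9, Amh and Star had no listed region. Over all lists, 496 of 499 regions were male-higher, or 99.4% against 99.7% of all listed regions. None of the 38 coding genes of the Hox clusters, 31 of them with an accession that could be matched, had a region here or in any of the other 3 tables.

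Promoters and 5′ UTRs together held 1084 listed regions with a gene name, in 1061 genes, of which 1075 were male-higher. Those with the most CpGs had levels near the medians. Ager, the receptor gene for advanced glycation end products, had 19.4% in males and 2.8% in females over 33 CpGs, and Pmepa1, a regulator of transforming growth factor signalling, 16.2% and 4.9% over 33 CpGs. Cdkn1a, the gene of the cell cycle inhibitor p21, had 17.8% and 4.7% over 30 CpGs of its 5′ UTR. The promoter of Cpne3, a calcium-dependent lipid-binding protein gene, changed direction within a short distance. A region of 32 CpGs (chromosome 5, 33560328 to 33561125) had 19.7% in males and 4.0% in females, and the adjoining region of 6 CpGs (33559972 to 33560316) had 14.3% in males and 29.9% in females. At the latter region HFD females had 6.4% and GD18 males 3.0%.

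The 165 female-higher regions were smaller and more variable than the male-higher ones. Their median was 6 CpGs, against 9 in the male-higher regions, and 17 of them had 10 or more CpGs. Female means ran from 10.4 to 100% and male means from 0 to 57.0%. Those named here are the 8 with the widest gap among regions with a gene name and at least 8 CpGs. After Fgfr4, with 7.7% in males and 52.2% in females, came a transcript end of Shisa2, a gene of an inhibitor of fibroblast growth factor and WNT receptors in other vertebrates, with 6.6% in males and 39.6% in females over 8 CpGs. The promoter of Mfhas1 had 4.8% and 37.3% over 9 CpGs (chromosome 16, 60208752 to 60208786). In the heat shock gene Hspa1l an exonic region had 0% and 32.1% over 8 CpGs. An intron of Kalrn, a guanine nucleotide exchange factor gene, had 6.2% and 32.7%, and an intron of the mitochondrial ribosomal RNA methyltransferase gene Nsun4 had 2.5% and 24.6%. The largest named promoter region was that of Ssbp4, with 6.4% in males and 25.4% in females over 13 CpGs (chromosome 16, 20578060 to 20578127). An intron of Srp68, a signal recognition particle gene, closed the group with 4.7% and 20%. Of the 165, 151 were also listed, at identical coordinates, as lower in GD18 males than in these control females, whereas 464 of all 48127 regions (0.964%) recurred there. Likewise 47 were listed as lower in HFD females than in control females, with 144 of all 48127 (0.299%) recurring there. All 3 comparisons use the same 3 control female libraries.

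In genes with many regions the female-higher ones were single exceptions. Kazn, a cell junction gene, had 2 of its 28 regions female-higher. Adgrl2, Anks1b, Cmip, Itpr2 and Kalrn had 1 of 29 each. At Itpr2, an intracellular calcium channel gene, the female-higher exon had 11.9% in males and 34.1% in females, against gene medians of 19.5% and 5.9%. Of the 7 female-higher regions in CpG islands, 2 lay on the X chromosome, with 0.4% in males and 11.7% in females over 15 CpGs and with 0% and 10.4% over 10 CpGs. Promoter or 5′ UTR regions higher in females were 9, and besides those of Ssbp4, Mfhas1 and Cpne3 they included Chek1, a DNA damage checkpoint kinase gene (0% against 15.4%), Tead1, a Hippo pathway transcription factor gene (9.3% against 22.3%), and Klhdc8a (7.0% against 50.0%).

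The other 3 tables give a further group mean at some of the same segments, and each shares a control group with the sex comparison, so the values are set side by side and no agreement between tables is counted as support. Values of the GD16 control sexes are those of the sex comparison. The authors listed 96.8% of the regions over which the FDR was adjusted in the table of HFD males against control males, 88.1% in that of HFD females against control females and 88.3% in that of GD18 control males against GD16 control females. Of the 48127 regions, 5844 (12.1%) overlapped the HFD male table by at least 1 bp, which was 57.5% of that table (5798 of 10084). The HFD female table overlapped 515 (1.07%), which was 27.6% of that table (505 of 1832). The GD18 table holds 1618 regions in all, although it uses the same GD16 control females as the 48127 regions here. It overlapped 496 (1.03%) of the 48127, which was 30.5% of that table (494 of 1618). Most male-higher regions thus have no GD18 mean here, and why these tables differ in size was not tested. Identical coordinates were found for 1153 regions of the HFD male table, 144 of the HFD female table and 464 of the GD18 table. The authors' mean of the shared control group was equal to 0.1 points in both tables at all 464 regions of the GD18 table, at 126 of 144 in the HFD female table and at 917 of 1153 in the HFD male table. The largest gap between the means given for one control group at one segment was 8.1 points in females and 13.5 points in males, so a control mean was not fixed by its coordinates alone.

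Most of the male-higher segments that were also listed in the HFD male table were lower in HFD males than in control males. Both listings use the control males, so this direction follows in part from the choice of segments. The share lower in HFD males over all 10084 regions of that table is not given here. At 1089 such segments with lower methylation in HFD males, the medians were 25.5% in control males, 10.4% in HFD males and 5.0% in control females. At 60 segments HFD males were higher still, with 30.4% against 17.0% in control males and 3.4% in control females. An intron of Wipf2, an actin regulator gene, illustrates the first kind with 40.7% in control males, 14.5% in HFD males and 0% in control females. The promoter of Stoml3, a stomatin family gene, had 35.0%, 7.1% and 0% in the same order. An intron of Ppa2, an inorganic pyrophosphatase gene, was female-higher (9.2% in control males and 22.8% in control females) and stood at 61.8% in HFD males.

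Where segments were also listed in the GD18 table, GD18 males were below both sexes of GD16 at 217 male-higher segments, with medians of 30.1% in GD16 males, 14.5% in GD16 females and 2.7% in GD18 males. At another 96 male-higher segments the median of GD18 males lay between them, with 22.9%, 1.25% and 13.2% in the same order. At 151 female-higher segments the medians were 8.1%, 28.0% and 3.1%. Listing in both tables requires a distance of at least 10 points from the GD16 females in each, so the size of these gaps follows in part from the listing. At the 217 and the 151 segments the place of GD16 females between or above the males is fixed by the 2 listed directions and is not a separate result. Prkcz, an atypical protein kinase C gene, had 65.1% in GD16 males, 36% in GD16 females and 9.3% in GD18 males in an intron, and 29.7% in HFD males. The promoter of the X-linked Magebl1, of the melanoma antigen family, had 29.3%, 16.3% and 2.4% in GD16 males, GD16 females and GD18 males, and 1.3% in HFD females.

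The female HFD table gave a similar side-by-side view. At 68 male-higher segments the medians were 22.1% in control males, 1.4% in control females and 14.25% in HFD females. At 29 others they were 30%, 14.2% and 1.8%. Trim71, a regulator of stem cell mRNA, had 43.5% in control males, 22.3% in control females, 59.8% in HFD females and 7.2% in GD18 males at its transcript end. At the 47 female-higher segments in that table the medians were 9.1% in control males, 30.6% in control females and 2.7% in HFD females. Of these 47, 46 were also listed in the GD18 table, and there GD18 males had a median of 3.95%. By this listing control females were the highest of the 4 groups at these 46 segments, with a median of 30.8% against medians of 9.15% in control males, 2.55% in HFD females and 3.95% in GD18 males. Both of the further tables use the same 3 control female libraries, and the part of single libraries in these segments was not tested.

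**Figure D5:**
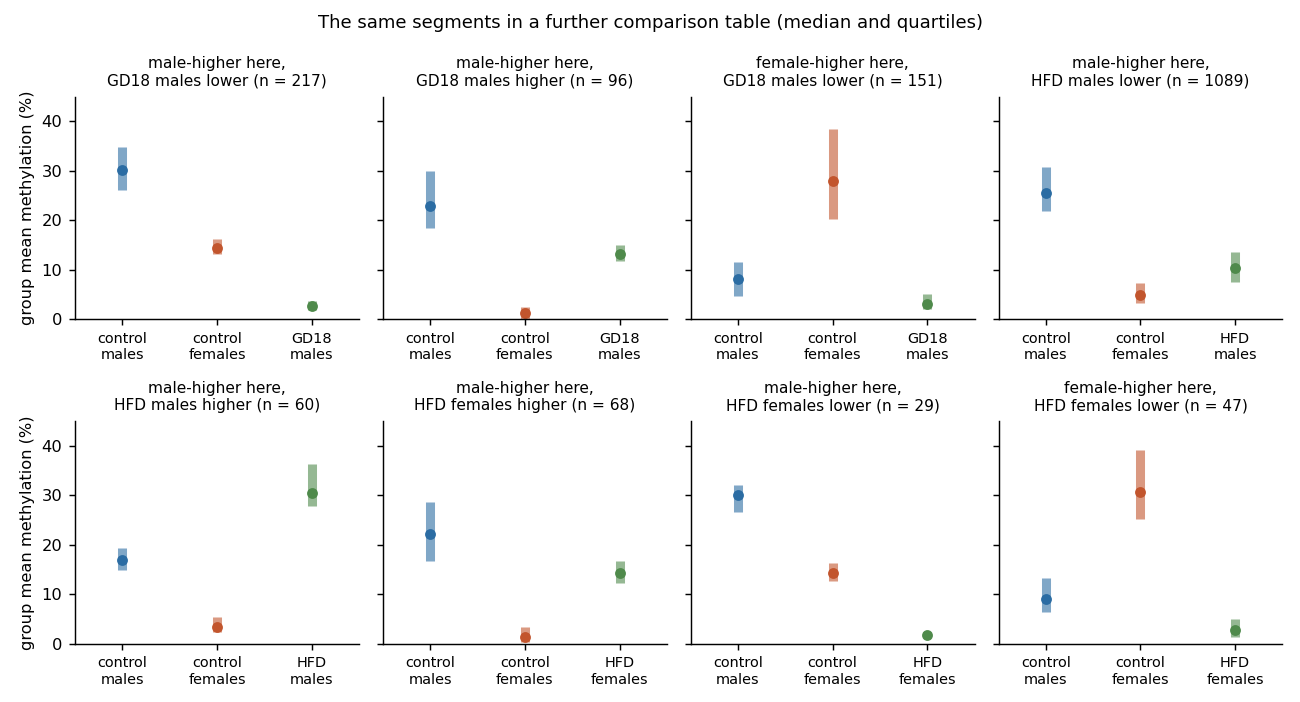
Authors' group mean methylation (y axis, percent) at segments with identical coordinates in the sex comparison and 1 further table, by direction in each. Dots are medians and bars quartiles over segments for GD16 control males (blue), GD16 control females (orange) and the third group (green). The HFD male median lies between the control sexes at 1089 segments and the GD18 male median below both at 217.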

How the data were processed

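Capture libraries made with the Agilent Rat SureSelectXT Methyl-Seq panel from sorted germ cells were bisulfite sequenced, per the labels' protocols. Per the submitters' processing notes the tools included Bismark 0.19.0 and Bowtie2, and no source used here names a genome build. Per the file headers, the authors deposited for each region the mean CpG methylation of both groups as a fraction from 0 to 1 (printed as percent), their difference as a score, a p-value called a two-sample t-test, and an FDR, which reached at most 0.0499. How many regions each FDR was adjusted over was derived from the FDR, the p-value and its rank. Values per library, counts and coverage were not available for use, so the logistic tests planned for counts were not made, and percentiles and quartiles describe regions, not libraries. Although segments had a minimum of 50 bp per the series' design text, 179 listed regions were shorter, down to 20 bp.

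Symbols came from RefSeq (GRCr8, names and promoter sequences only) for 94.5% of 8442 accessions. Regions of 23 genes (40 regions) whose RefSeq chromosome differed, among them ribosomal protein and receptor genes, were left out of gene counts. A comparison of promoter CpG content is void, since 752 of 1061 genes with a promoter region (70.9%) had a sequence. Regions named for the most CpGs or the widest gap followed a rule on size of gap, CpG number and annotation. Members of the gene lists and genes with many regions were named in part outside the rule set for them. The examples shared by several tables and the regions methylated in both sexes were chosen after their values were seen. The regions, gene lists and rules were chosen with earlier results of these data known. The tools were bedtools 2.31.1 for overlaps, matplotlib 3.10.9 for plots, and pandas 2.3.3, scipy 1.17.1 and numpy 2.4.6 under Python 3.11.15. Only the steps for the number of regions adjusted over, median intervals, merging and overlaps were tested on simulated data. Alternatives were an FDR of at most 0.01, at least 10 CpGs, a difference of at least 20 points, autosomes only, merging within 1000 bp, leaving out regions under 50 bp, weighting by CpGs and stricter overlaps.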

Additional observations from a re-analysis of the deposited data

How the results depend on the processing

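Each alternative run on direction kept or merged a part of the same list, which was selected by this difference. The direction therefore had little room to change, and its shares are given as description only. The male-higher share of 99.66% became 99.8% at an FDR of at most 0.01, 99.92% at 10 or more CpGs and 99.24% at differences of at least 20 points. Female-higher regions numbered 95, 17 and 64 under these settings in that order, and male-higher ones 20072 at 10 or more CpGs and 8334 at 20 points. The median of male-higher regions moved to 18.9% in males and 4.9% in females at 10 or more CpGs, to 27.6% and 3.8% at 20 points, and to 19.2% and 4.8% when weighted by CpGs, and the female median to 4.65% at the stricter FDR. For the gene lists the male median of 19% moved to 18.4% at 10 or more CpGs and to 26.2% at 20 points, where 100% of regions were male-higher. With identical coordinates the overlaps fell to 144 with the HFD female table and 1153 with the HFD male table. The other 35 values stayed within their interval or within 1.5 times the count. The intervals were set over regions or genes and do not measure spread between libraries. Apart from the weighting, whose cause was not tested, these shifts follow from which regions each setting keeps. The share of coding genes with a region, 41.57%, was 48.13% among genes with an accession no newer than the newest in the tables, an alternative chosen after seeing the data, and among these the list shares ran up to 75%. No paired analysis was possible because the tables hold group means and no values per library, and leaving out single libraries was not run for the same reason. Depth is unknown.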

Other observations

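At 18 male-higher regions the female mean was 20% or above, the level that males reached at a typical male-higher region. These regions, chosen after their values were seen, lay in an exon of Bpifb4 (36.8% in males and 24.8% in females), introns of Prkcz, Cby1, Tns3, Hsf2bp and Loxhd1, the transcript end of Trim71, 8 intergenic segments and 3 regions of unplaced scaffolds. The largest placed one, on chromosome X, had 16 CpGs at 41.4% in males and 25.1% in females. Hsf2bp, a meiotic recombination gene, had 42.8% and 20.6% over 7 CpGs at GD16, and at the same segment 8.0% in GD18 males and 9.5% in HFD females. Cby1, a WNT antagonist gene, had 35.8% and 23.2% over 10 CpGs.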
